A study of Mus musculus with 6 samples.

Results

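Interferon-stimulated genes are the genes that cells switch on when interferon reaches them, and 34 of them were followed here by name: Isg15, the Ifit genes Ifit1, Ifit2 and Ifit3, the Oas genes Oas1a, Oas2, Oas3 and Oasl2, Mx1, Mx2, Gbp2, Gbp3, Irf7, Irf9, Stat2, Usp18, Rsad2, Cmpk2, Isg20, Bst2, Ifi44, Ifi35, Ifi27l2a, Rtp4, Xaf1, Parp9, Parp14, Dtx3l, Trim25, Ddx58, Ifih1, Dhx58, Eif2ak2 and Zbp1. They were chosen as a list of symbols, and all 34 matched 1 row each of the 54532 rows of the count table. RNA was sequenced from hearts of C57BL/6 mice aged 8 to 10 weeks, 14 days after myocardial infarction (MI). The groups were 3 hearts of wild-type mice (WT) and 3 hearts of mice without Ackr4 (ACKR4_KO), the gene of an atypical chemokine receptor that takes up chemokines without classical signalling. Every heart was infarcted and none was uninjured, so the levels below are levels of the infarcted heart at 1 time. How the knockout was made, the sex of the mice, the part of the heart taken and the infarct size are not stated in the sources used here.

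Type I interferons act through a receptor whose kinases activate a complex that holds STAT2 and IRF9, which binds a DNA element called the interferon-stimulated response element (ISRE). Interferon-gamma acts through another receptor and another DNA element, the gamma-activated site (GAS). The induced genes encode sensors of viral nucleic acid, factors that amplify the response, and effectors that block translation, degrade RNA or hold virus at membranes. After MI, nucleic acid from dying cells taken up by macrophages is a known trigger of this response in the heart.

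Levels of the 34 genes varied together from heart to heart. A single library, ACKR4_KO replicate 2, held the highest level of 32 of them (it was highest for 24.6% of all genes tested), with Ifit1 at 84.8 CPM (the read count relative to the library's total, scaled for library composition) against at most 25.4 CPM in the other 5 libraries. ACKR4_KO replicate 1, by contrast, lay below every WT heart for 24 of them (30.1% of all genes tested did). None of the 34 passed the test of ACKR4_KO against WT (edgeR's quasi-likelihood test, Benjamini-Hochberg adjusted p under 0.05), where 0% of the 14406 genes tested passed. The plot of levels by library shows the 34 genes grouped by role.

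**Figure D1:**
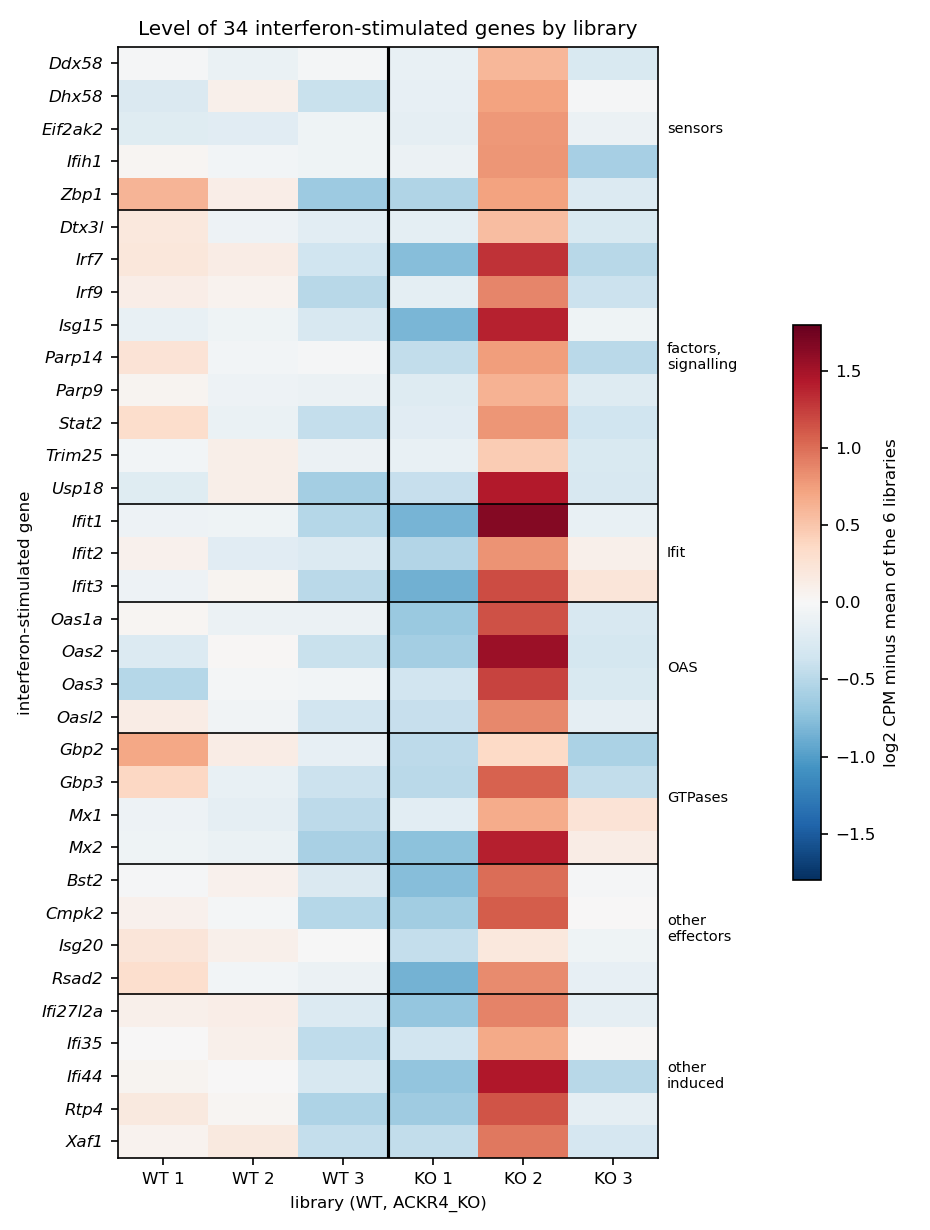
Heat map of the 34 interferon-stimulated genes (rows, grouped by role) in the 6 libraries (columns). Colour is the log2 CPM of a gene in a library minus its mean over the 6 libraries, and ACKR4_KO replicate 2 is the highest column for 32 of the 34 genes.

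The libraries held 9422462 to 13910358 reads in genes. Ackr4 itself was counted in 165, 151 and 169 reads in the WT hearts and in 4, 1 and 12 reads in the knockout hearts, a log2 difference of -4.70 (standard error 0.483, edgeR's quasi-likelihood test, adjusted p = 0.099). Correlations of log2 CPM over genes were 0.982 to 0.984 within WT and 0.952 to 0.966 within ACKR4_KO. Cardiomyocyte markers summed to 27365 to 35524 CPM in WT and 35000 to 49858 CPM in ACKR4_KO, so the tissue carried its heart label, and 9 lung epithelium markers summed to 42.5 to 262 CPM in WT and 0.323 to 1.83 CPM in ACKR4_KO. Fast skeletal muscle markers summed to 3.89, 85.2 and 110 CPM in the WT hearts and to at most 8.61 CPM in ACKR4_KO, and what either tissue contributes to the WT levels below was not tested. In whole tissue, fewer cells of a type and less RNA per cell cannot be told apart. The labels name separate replicate mice but no litter, day or batch, and p-values measure only the spread between these hearts.

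Letters like those of the ISRE and GAS elements were searched for in the promoters. RefSeq promoter windows, 250 bases before to 50 bases after a transcription start on GRCm38.p6, were found for 24 of the 34 genes (29 windows). The longer ISRE-type motif, GAAANNGAA followed by a further A (10 letters) searched on both strands, was in 13 of the 29 windows (44.8%) and in 1131 of all 32851 windows (3.4%). The shorter GAAANNGAA (9 letters), which every match to the 10-letter motif contains, was in 15 windows (51.7%), against 8.6% of all windows. The GAS-type motif TTCNNNGAA, the same on both strands, was in 6 windows (20.7%), against 8.3% of all windows.

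Promoters of 6 genes are printed because they bracket the levels reported below: Isg15, Ifit1 and Oas1a, at least 2-fold higher in ACKR4_KO replicate 2 than in any other heart, Bst2, among the most abundant, and Gbp2 and Isg20, the only members not highest in that heart. Each line holds the 250 bases before the start site, 5′ to 3′ on the strand of the gene, with capitals for matches to the 9-letter or 10-letter motif on either strand, and in Isg20 for the match to TTCNNNGAA.
Isg15, chr4:156200819-156201068, minus strand: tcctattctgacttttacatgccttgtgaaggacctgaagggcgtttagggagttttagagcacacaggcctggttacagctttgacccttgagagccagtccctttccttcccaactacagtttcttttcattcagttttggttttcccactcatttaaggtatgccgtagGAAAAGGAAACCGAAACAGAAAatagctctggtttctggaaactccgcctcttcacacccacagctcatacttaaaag
Ifit1, chr19:34640639-34640888, plus strand: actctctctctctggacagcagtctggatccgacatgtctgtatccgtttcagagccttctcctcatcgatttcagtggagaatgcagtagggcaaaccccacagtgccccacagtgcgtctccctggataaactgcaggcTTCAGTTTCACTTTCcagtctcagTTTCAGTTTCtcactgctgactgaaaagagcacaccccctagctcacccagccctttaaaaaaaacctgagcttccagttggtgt
Oas1a, chr5:120907526-120907775, minus strand: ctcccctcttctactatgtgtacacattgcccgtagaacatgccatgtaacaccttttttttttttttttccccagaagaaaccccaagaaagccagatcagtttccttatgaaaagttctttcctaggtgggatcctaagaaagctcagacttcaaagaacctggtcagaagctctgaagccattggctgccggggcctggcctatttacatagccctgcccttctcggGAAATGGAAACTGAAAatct
Bst2, chr8:71537473-71537722, minus strand: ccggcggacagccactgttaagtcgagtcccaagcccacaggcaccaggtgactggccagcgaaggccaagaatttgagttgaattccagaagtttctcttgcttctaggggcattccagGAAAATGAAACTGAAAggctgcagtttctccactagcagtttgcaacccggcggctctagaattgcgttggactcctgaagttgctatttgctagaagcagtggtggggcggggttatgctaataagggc
Gbp2, chr3:142620413-142620662, plus strand: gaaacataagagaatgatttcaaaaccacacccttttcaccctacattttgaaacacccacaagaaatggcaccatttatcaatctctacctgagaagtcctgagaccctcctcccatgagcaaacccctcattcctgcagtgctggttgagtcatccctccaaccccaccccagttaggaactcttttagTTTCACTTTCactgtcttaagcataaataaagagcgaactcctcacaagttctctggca
Isg20, chr7:78913174-78913423, plus strand: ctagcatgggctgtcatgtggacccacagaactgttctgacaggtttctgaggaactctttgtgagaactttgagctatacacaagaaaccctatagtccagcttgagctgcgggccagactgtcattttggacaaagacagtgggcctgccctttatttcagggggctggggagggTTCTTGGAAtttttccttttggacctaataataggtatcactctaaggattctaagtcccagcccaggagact

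Isg15 carries 3 overlapping copies of the 10-letter motif, starting 78, 72 and 66 bases before the start site. Oas1a has a pair at 20 and 14 bases before the start, Bst2 a pair at 130 and 124 bases before it, and Gbp2 a single copy 59 bases before it. Ifit1 has the motif on the opposite strand, with 2 matches to the 10-letter form and 3 to the 9-letter form. Isg20, in the window with a match, has no ISRE-type letters and 1 GAS-type match 73 bases before the start. Oas1a and Bst2 also hold 1 GAS-type match each, which the capitals do not mark. The printed promoters do not show that motifs follow levels. Irf7 and Cmpk2, also at least 2-fold higher in ACKR4_KO replicate 2, have no match of any kind in their windows. Ifi44, past 2-fold too, has only the 9-letter form, and Oas3 has the 10-letter form. Irf9, Oasl2, Xaf1 and Dtx3l have no match either. These are matches of letters and not measured binding, and no match says only that those letters are not in the window. The plot of motif positions shows where the matches lie in each window.

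**Figure D2:**
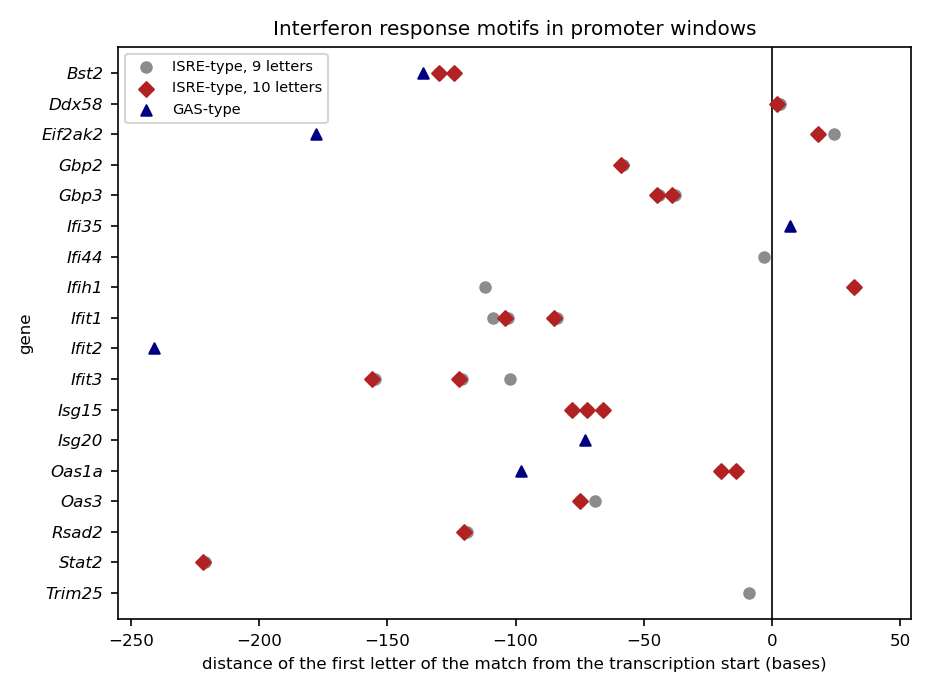
Position of each motif match (x axis, bases from the transcription start to the first letter of the match) in the promoter windows of the 18 members with any match (y axis). Diamonds mark the 10-letter ISRE-type motif, grey circles the 9-letter one and triangles TTCNNNGAA, and the 3 matches of Isg15 lie 66 to 78 bases before the start.

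Against this background of all genes, the genotype comparison gave small differences with large errors. The log2 difference of ACKR4_KO minus WT ran from -0.44 for Gbp2 to 0.83 for Ifit1, with 30 genes above 0 and 4 below (Gbp2, Isg20, Zbp1 and Parp14). The median was 0.30, against 0.01 over all 14406 genes, of which 52% were above 0. At an unadjusted p under 0.05, edgeR's quasi-likelihood test, DESeq2 and limma-voom each gave 0 of the 34, while 7.45%, 3.96% and 7.51% of all genes passed (3.81% higher and 3.64% lower in edgeR). The DESeq2 share is over 25452 genes, without the filter on low counts, and the other shares are over 14406. DESeq2 called 0 members as well, and 0.234% of the genes to which it gave an adjusted p. The adjusted p of the members lay between 0.708 and 0.999 in edgeR's quasi-likelihood test. No member had all ACKR4_KO hearts above, or all below, the WT hearts, a pattern seen in 14.2% of all genes (6.53% higher and 7.63% lower in ACKR4_KO).

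Among the cytosolic sensors, Eif2ak2 encodes PKR, a kinase that halts translation on double-stranded RNA. It stood at 24.2, 24.6 and 26.7 CPM in WT replicates 1, 2 and 3 and at 25.1, 48.4 and 26.3 CPM in ACKR4_KO replicates 1, 2 and 3. The other 5 hearts lay within 1.10-fold of each other, below ACKR4_KO replicate 2, and the groups overlapped (log2 difference 0.40, standard error 0.244, edgeR's quasi-likelihood test, adjusted p = 0.71). Dhx58, the regulatory helicase LGP2, stood at 6.22, 7.92 and 5.65 CPM in WT and at 6.70, 12.3 and 7.33 CPM in ACKR4_KO. Only ACKR4_KO replicate 2 exceeded every WT heart, and the difference of 0.41 (standard error 0.274) gave an adjusted p of 0.728 in edgeR's quasi-likelihood test. Without ACKR4_KO replicate 2 the log2 differences of Eif2ak2 and Dhx58 were 0.03 and 0.10. Ddx58 (RIG-I) and Ifih1 (MDA5), the helicases that signal through Mavs, reached 53.2 and 50.3 CPM in ACKR4_KO replicate 2, against 28.9 to 34.5 CPM and 19.0 to 29.6 CPM in the other hearts. Zbp1, a sensor of Z-form nucleic acid that can start necroptosis, was nearly as high in WT replicate 1 (15.2 CPM) as in ACKR4_KO replicate 2 (16.5 CPM), with 6.34 to 10.8 CPM in the other 4.

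Among the transcription factors, Irf7, which amplifies production of interferon-alpha, differed most between hearts. It stood at 69.8, 66.5 and 47.3 CPM in WT replicates 1 to 3 and at 35.5, 149 and 42.9 CPM in ACKR4_KO replicates 1 to 3. ACKR4_KO replicate 2 was 2.14-fold above the highest WT heart, while the other ACKR4_KO hearts were below the lowest WT heart. The log2 difference of 0.31 was smaller than its standard error of 0.561 (edgeR's quasi-likelihood test, adjusted p = 0.908). Irf9, the DNA-binding partner of STAT2, stood at 57.0, 54.6 and 36.8 CPM in WT and at 46.1, 96.4 and 39.8 CPM in ACKR4_KO. ACKR4_KO replicate 2 was again highest, and the others fell inside the WT range (log2 difference 0.30, standard error 0.355, edgeR's quasi-likelihood test, adjusted p = 0.844). Stat2 followed with 71.8 CPM in ACKR4_KO replicate 2 and 30.8 to 51.3 CPM in the other hearts.

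Irf1, a factor induced by interferon-gamma and no member of the list, had 70.0, 46.2 and 44.4 CPM in WT and 36.7, 57.3 and 44.0 CPM in ACKR4_KO (log2 difference -0.22, standard error 0.221, edgeR's quasi-likelihood test, adjusted p = 0.816). Here the highest heart was WT replicate 1, and the groups overlapped.

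The ubiquitin-like modifier Isg15 and its protease Usp18, which also restrains the receptor, had similar orders of hearts. Isg15 stood at 56.5 CPM in ACKR4_KO replicate 2 and at 12.2 to 20.4 CPM elsewhere, 2.76-fold above the next heart. Usp18 stood at 36.4 CPM there and at 8.82 to 14.5 CPM elsewhere, 2.51-fold above the next. The ratio was smaller for Trim25, the ubiquitin ligase that activates RIG-I, and for the ADP-ribosylation genes. Trim25 had 78.5, 87.3 and 75.4 CPM in WT and 73.7, 112 and 67.0 CPM in ACKR4_KO, with ACKR4_KO replicate 2 highest by 1.28-fold and the other ACKR4_KO hearts lowest (log2 difference 0.07, standard error 0.193, edgeR's quasi-likelihood test, adjusted p = 0.943). Parp14, a mono-ADP-ribosyltransferase, had 83.6, 67.9 and 69.0 CPM in WT and 51.9, 119 and 50.1 CPM in ACKR4_KO. Its lowest hearts were both in the knockout group, as was its highest, and the fitted difference was near 0 (standard error 0.337, edgeR's quasi-likelihood test, adjusted p = 0.999). Parp9 and Dtx3l, which form a heterodimer, are divergent genes with overlapping 5′ ends and stood at 53.2 and 48.0 CPM in ACKR4_KO replicate 2, against 29.2 to 35.5 CPM and 27.0 to 37.3 CPM in the other hearts.

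The Ifit genes, whose products bind viral RNA ends and block its translation, differed widely between hearts. Ifit3 stood at 38.0, 41.9 and 29.0 CPM in WT and at 22.4, 91.9 and 47.1 CPM in ACKR4_KO. Ifit2 stood at 46.9, 38.8 and 37.6 CPM in WT and at 30.9, 77.8 and 47.4 CPM in ACKR4_KO. For both genes ACKR4_KO replicate 1 was the lowest heart and ACKR4_KO replicates 2 and 3 were above every WT heart. The groups still overlapped, with log2 differences of 0.57 (standard error 0.482) and 0.34 (standard error 0.307) and adjusted p of 0.789 and 0.797 in edgeR's quasi-likelihood test. Ifit1, with 84.8 CPM in ACKR4_KO replicate 2, was 3.34-fold above the next heart, the highest ratio among the 34. The near-identical Ifit3b stood at 30.5 CPM in that heart and 6.22 to 13.0 CPM in the others. Reads that match both Ifit3 and this copy may be split or left uncounted.

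The Oas genes make or relate to the enzymes that produce oligoadenylates, the activators of RNase L. Oas2 stood at 76.0 CPM in ACKR4_KO replicate 2 and 17.1 to 26.4 CPM in the other hearts, and Oas1a at 33.6 CPM against 9.53 to 15.5 CPM. Oasl2 stood at 73.2 CPM against 30.0 to 44.0 CPM. Oas3 was the rarest of the 4, with 9.32 CPM against 2.80 to 3.91 CPM, from 36 to 91 reads a library. All 4 had their highest level in the same heart, and ACKR4_KO replicate 1 was the lowest heart for each but Oas3, whose lowest was WT replicate 1. Oas1a has close paralogs, Oas1g among them, so its reads may also be split or left uncounted.

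Among the GTPases, the dynamin-like Mx1 and Mx2, of a family known for trapping viral nucleocapsids, were rare. Whether these mice make working Mx proteins was not tested. Mx1 stood at 3.03, 2.88 and 2.34 CPM in WT and at 2.83, 5.12 and 3.84 CPM in ACKR4_KO, and gave the smallest adjusted p of the 34 (log2 difference 0.51, standard error 0.308, edgeR's quasi-likelihood test, adjusted p = 0.708). It rested on 28 to 50 reads a library, and ACKR4_KO replicate 1 lay inside the WT range. Mx2, annotated as a polymorphic pseudogene in GENCODE M21, stood at 3.81, 3.70 and 2.69 CPM in WT and at 2.42, 10.7 and 4.45 CPM in ACKR4_KO. Its highest and lowest hearts were both ACKR4_KO, and the log2 difference of 0.77 (standard error 0.498) gave an adjusted p of 0.722 in edgeR's quasi-likelihood test. Without ACKR4_KO replicate 2 the log2 differences of Mx1 and Mx2 were 0.28 and 0.02.

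The guanylate-binding proteins, which attack the vacuoles of intracellular pathogens, split in their order of hearts. Gbp2 stood at 80.8, 54.7 and 44.8 CPM in WT and at 36.0, 63.5 and 33.5 CPM in ACKR4_KO. WT replicate 1 was the highest heart and ACKR4_KO replicates 1 and 3 were the lowest, with ACKR4_KO replicate 2 between WT replicates 1 and 2. The log2 difference of -0.44 (standard error 0.302) was the lowest of the 34 (edgeR's quasi-likelihood test, adjusted p = 0.741). Gbp3, the neighbouring gene, instead reached 86.2 CPM in ACKR4_KO replicate 2, with 53.4 CPM in WT replicate 1 and 29.5 to 37.8 CPM in the other 4.

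Of the other effectors, Bst2 (tetherin), which holds budding virions at the cell surface, was the most abundant member by CPM. It stood at 92.6, 99.8 and 78.4 CPM in WT and at 55.2, 190 and 92.5 CPM in ACKR4_KO. ACKR4_KO replicates 2 and 1 were the highest and lowest of the 6 hearts, and replicate 3 lay inside the WT range (log2 difference 0.32, standard error 0.422, edgeR's quasi-likelihood test, adjusted p = 0.867). Rsad2 (viperin), which makes a chain-terminating nucleotide, stood at 60.0, 47.0 and 45.5 CPM in WT and at 27.1, 88.3 and 44.0 CPM in ACKR4_KO. ACKR4_KO replicates 1 and 3 were below the WT hearts and replicate 2 above them (log2 difference 0.06, standard error 0.406, edgeR's quasi-likelihood test, adjusted p = 0.978). Cmpk2, the mitochondrial nucleotide kinase encoded next to Rsad2, had 61.1 CPM in ACKR4_KO replicate 2 and 18.7 to 30.3 CPM in the other hearts. The exonuclease gene Isg20 stood at 11.5, 10.5 and 9.78 CPM in WT and 7.35, 11.3 and 9.34 CPM in ACKR4_KO, lowest in ACKR4_KO replicate 1, and is given by library because its promoter is printed.

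The less well characterised induced genes gave the same picture. Ifi27l2a, a small membrane protein of mitochondria and the nuclear envelope, stood at 80.3, 82.2 and 64.0 CPM in WT and at 46.8, 140 and 67.7 CPM in ACKR4_KO. The extremes were ACKR4_KO replicates 2 and 1, and replicate 3 lay inside the WT range (log2 difference 0.17, standard error 0.385, edgeR's quasi-likelihood test, adjusted p = 0.926). Ifi44, Rtp4, Xaf1 and Ifi35 stood at 46.3, 55.0, 44.0 and 36.6 CPM in ACKR4_KO replicate 2, where their highest levels elsewhere were 17.7, 28.5, 25.9 and 24.5 CPM. Per kilobase of exon, mean levels over the 6 hearts ran from 0.621 CPM for Oas3 to 173 CPM for Ifi27l2a, with Bst2 at 112 CPM, Isg15 at 32.4 CPM and Ifit3 at 25.8 CPM. The levels of the others lay between 0.883 CPM (Mx1) and 20.8 CPM (Gbp2) per kilobase.

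ACKR4_KO replicate 2 was singled out after its values were seen, so the counts that follow are a description of that heart. It was the highest of the 6 libraries for 32 of the 34 genes, against 24.6% of all genes tested. It was at least 1.5-fold above every other library for 23 of the 34, against 1.42% of all genes, and at least 2-fold above for 10, against 0.236%. It lay above all WT hearts for 32 members, against 35.4% of all genes. The members made up 23 of the 204 genes past 1.5-fold (11.3% of those genes, 67.6% of the members) and 10 of the 34 genes past 2-fold (29.4% of each list). The ratio to the next highest library ran from 0.787 for Gbp2 to 3.34 for Ifit1, with a median of 1.69, against 0.833 over all genes. The plot of ratios shows the members as a group to the right of 1-fold.

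**Figure D3:**
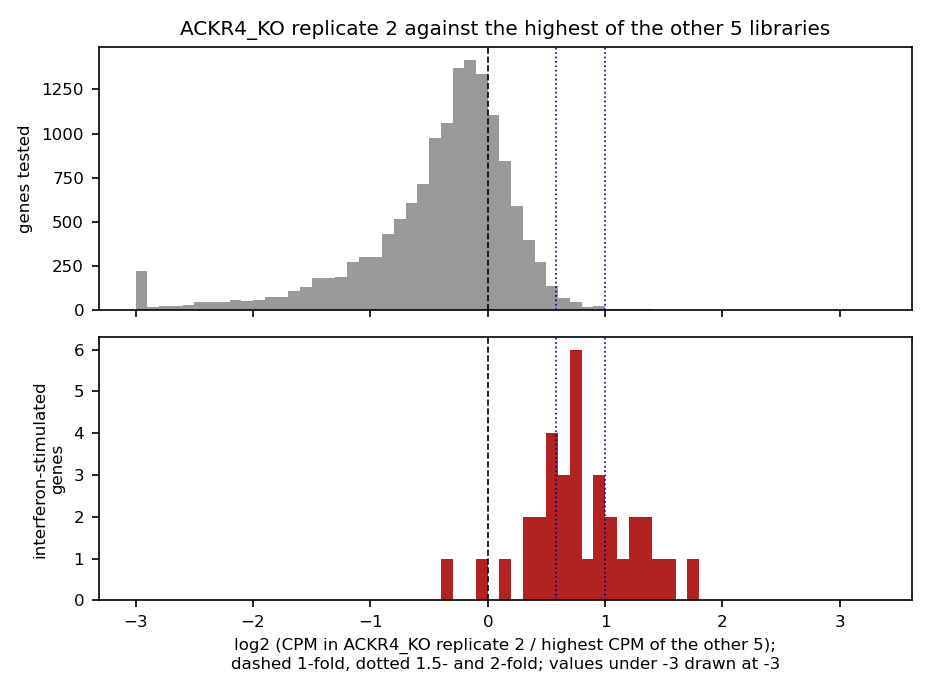
Histograms of the log2 ratio of CPM in ACKR4_KO replicate 2 to the highest CPM of the other 5 libraries (x axis) for all 14406 genes tested (upper, number of genes) and for the 34 interferon-stimulated genes (lower). Dotted lines mark 1.5-fold and 2-fold, and 23 members lie past the first and 10 past the second.

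The 10 members past 2-fold were Ifit1, Oas2, Isg15, Ifi44, Usp18, Mx2, Oas3, Oas1a, Irf7 and Cmpk2. Beyond the members, the highest ratios over all genes were those of Apol9a (8.06), the heat shock genes Hspa1b (5.91) and Hspa1a (4.43), Apol9b (4.33) and the platelet chemokine gene Ppbp (3.82). These were chosen after their values were seen. The same heart stood apart in its tissue markers. Its fibroblast markers summed to 2307 CPM, against 5012 to 7045 CPM in the other 5, its macrophage markers to 1278 CPM against 1612 to 2027 CPM, its cardiomyocyte markers to 49858 CPM against 27365 to 42397 CPM, and its red cell markers to 639 CPM against 137 to 319 CPM. It was lowest for 7 of 10 macrophage markers and 5 of 6 fibroblast markers, and highest for 5 of 5 red cell markers and 6 of 8 cardiomyocyte markers. Its mitochondrial share of reads was 21.4%, against 15.8% to 19.4%, and its composition scaling factor was the lowest, 0.891 against 1.01 to 1.05. Without that factor, by library size alone, it was highest for 31 members (background 11.1%) and past 1.5-fold for 14 (background 0.528%). Whether its makeup or its handling contributed to these levels was not tested.

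Plasmacytoid dendritic cells are known as strong producers of interferon. Of their 5 markers, the defining Siglech and Ccr9 were near 0 in every heart, at 0.102 to 0.698 CPM and 0 to 0.404 CPM, and in ACKR4_KO replicate 2 at 0.102 and 0 CPM. The list's sum, 279 to 321 CPM in WT and 248 to 373 CPM in ACKR4_KO, came almost wholly from Tcf4 and from Bst2, which is itself a member. T and NK cell markers summed to 16.5 to 22.0 CPM in WT and to 9.45 to 10.9 CPM in ACKR4_KO, and monocyte markers to 36.8 to 91.1 CPM and 24.3 to 36.0 CPM. The highest monocyte sum rested on Chil3, at 52.4 CPM in WT replicate 1 and 0.960 to 13.8 CPM in the other hearts, while Ccr2 was highest in ACKR4_KO replicate 3, at 24.4 CPM. The part of these cells in the levels of the members was not tested.

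Leaving out ACKR4_KO replicate 2, the highest library for most members and singled out after its values were seen, was bound to lower their differences. The values of this fit are therefore a description. Without that heart, the direction turned. The median log2 difference of the members was then -0.23, with 30 of 34 below 0, against 47.8% of the 14833 genes tested in that fit. Groups did not overlap for 12 members, all lower in ACKR4_KO, namely Irf7, Parp14, Gbp2, Gbp3, Ifi44, Oas1a, Rsad2, Parp9, Ddx58, Ifih1, Trim25 and Isg20, against 12% of all genes. Irf7 (log2 difference -0.64), Parp14 (-0.52), Gbp2 (-0.79), Ifi44 (-0.53) and Oas1a (-0.41) had an unadjusted p under 0.05 in edgeR's quasi-likelihood test, against 3.51% of all genes in that direction and 6.64% in either. None passed after adjustment, the smallest adjusted p being 0.625 for Parp14, and 0% of all genes did. The plot of fold changes sets the fits with and without that heart side by side.

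**Figure D4:**
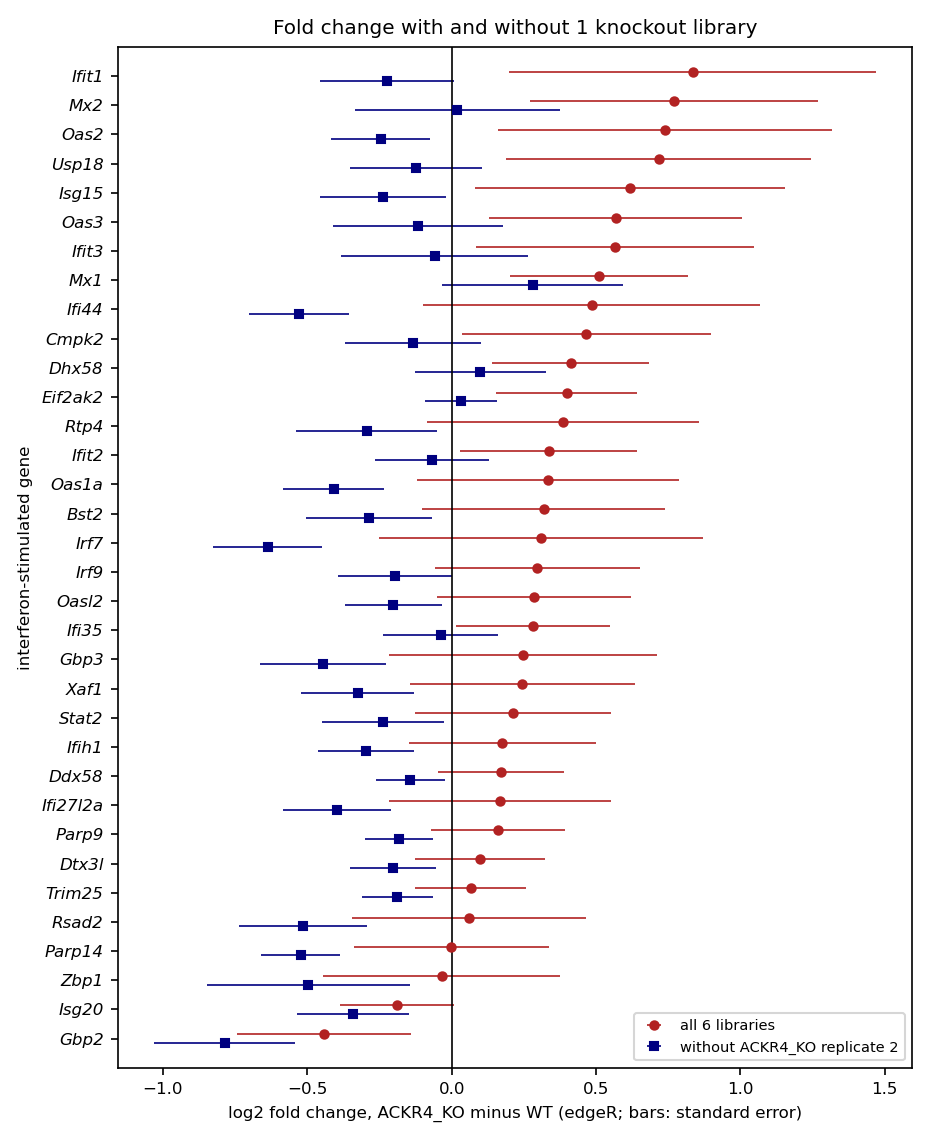
Log2 fold change of ACKR4_KO minus WT from edgeR (x axis, points with standard error bars) for each of the 34 genes (y axis), with all 6 libraries (red circles) and without ACKR4_KO replicate 2 (blue squares). The median moves from 0.30 to -0.23, and no difference passes the adjusted threshold in either fit.

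The other hearts also differed from each other, though not in 1 order for all members. ACKR4_KO replicate 1 was the lowest of the 6 libraries for 19 members, against 14.5% of all genes, and below all WT hearts for 24, against 30.1%. ACKR4_KO replicate 3 was below all WT hearts for 13 members (background 34%) and above them for 5 (background 34.2%). Within WT, replicate 1 was the highest for 21 members (background 30.4%) and replicate 2 for 12, and replicate 3 was the lowest for 29, against 34.7% of all genes. Among the 5 libraries other than ACKR4_KO replicate 2, the highest-to-lowest ratio of a member ran from 1.10 (Eif2ak2) to 2.41 (Gbp2), with a median of 1.63, against 1.43 over all genes.

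A score, the mean over the 34 genes of log2 CPM minus each gene's mean over the libraries, puts the 6 hearts on 1 scale. It was 0.06, -0.01 and -0.31 in WT replicates 1 to 3 and -0.47, 0.93 and -0.21 in ACKR4_KO replicates 1 to 3. The group difference of 0.17 was smaller than the pooled within-group standard deviation of 0.544. As a summed level, the 34 genes gave 1257, 1165 and 965 CPM in WT and 836, 2208 and 992 CPM in ACKR4_KO.

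Over the 6 libraries, every one of the 561 pairs of members had a positive Pearson correlation of log2 CPM, with a median of 0.88 and a lowest of 0.17. Pairs of all genes had a median of -0.0008 and quartiles of -0.40 and 0.40. The correlation of a member with the mean of the others was 0.93 in the median and lowest for Gbp2, at 0.60. By rank, which does not weigh how far 1 library stands out, the median was 0.83 and the lowest 0.03, for Eif2ak2. These are a description only, over 6 points of which 1 stands apart, from libraries scaled together.

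Outside the list, 12815 genes tested with a mean of at least 2 CPM were ranked by how closely their log2 CPM resembled the score. The closest were Ybey, Itga2b and Inpp5a (r = 0.99) and G3bp1, Rapsn, Slc25a39, Tom1l1, Lamtor3, Ifi213 and Ktn1 (r = 0.98), each over 6 libraries. They are the top of a large pool over few libraries, and a shared regulation was not tested. Ifi213, of the interferon-inducible p200 family, had the largest excess in ACKR4_KO replicate 2 of the 10, at 11.5 CPM against 3.55 to 5.76 CPM elsewhere. Itga2b, the platelet integrin alpha chain, stood at 6.15 CPM against 2.50 to 3.27 CPM. G3bp1 had the least, at 141 CPM against 121 to 127 CPM.

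The rest of the pathway was examined from lists, from ligand to regulator. Of 21 interferon ligand genes, 19 had 0 reads in all 6 libraries, which allows at most 3 reads, or 0.207 to 0.309 CPM, in each. Ifna16 had 1 read in WT replicate 3, and Ifng had 4, 0 and 2 reads in WT and 2, 0 and 1 reads in ACKR4_KO. No ligand was detectable in ACKR4_KO replicate 2 at this depth. These bounds cover counting error only.

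The 15 receptor and JAK-STAT genes split 7 higher and 8 lower, with 0 called and a median of -0.07. The receptor chain Ifngr2 stood at 152 to 172 CPM in WT and 156 to 186 CPM in ACKR4_KO, and Ifngr1 at 125 to 137 CPM and 93.8 to 115 CPM. The kinase Jak1 stood at 152 to 169 CPM and 137 to 182 CPM, and Stat3 at 151 to 171 CPM and 164 to 167 CPM. Ifngr1 was the only gene of this list at an unadjusted p under 0.05 (log2 difference -0.31, edgeR's quasi-likelihood test, adjusted p = 0.661). Of all genes tested, 7.45% had such a p. Groups did not overlap for Ifngr1, Ifnar2 and Socs1, all lower in ACKR4_KO, a pattern seen in either direction in 14.2% of all genes.

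The 17 sensors, adaptors and kinases of interferon induction split 7 higher and 10 lower, with 0 called and a median of -0.04. Mavs, the mitochondrial adaptor of RIG-I and MDA5, stood at 48.9 to 53.0 CPM in WT and at 52.7, 78.3 and 58.9 CPM in ACKR4_KO, highest in replicate 2. Unc93b1, the chaperone of endosomal Toll-like receptors, stood at 67.6 to 87.5 CPM in WT and 50.9 to 82.1 CPM in ACKR4_KO. Tmem173 (STING) and Myd88 had an unadjusted p under 0.05, both with a lower ACKR4_KO mean, and were named after their values were seen. Of all genes tested, 3.64% had such a p in that direction. Myd88, the adaptor of most Toll-like receptors, stood at 25.1, 26.7 and 25.8 CPM in WT and at 20.1, 18.0 and 15.4 CPM in ACKR4_KO (log2 difference -0.54, edgeR's quasi-likelihood test, adjusted p = 0.606). Tmem173 stood at 21.3, 23.3 and 23.2 CPM in WT and 18.3, 13.1 and 19.6 CPM in ACKR4_KO (log2 difference -0.41, edgeR's quasi-likelihood test, adjusted p = 0.661).

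A further 50 interferon-stimulated genes that passed the filter on low counts, of 52 listed, gave 32 higher and 18 lower, with 0 called and a median of 0.11. ACKR4_KO replicate 2 was the highest library for 38 of the 50. The most abundant was Ly6e, a surface protein that limits viral entry, at 473, 494 and 406 CPM in WT and 341, 583 and 304 CPM in ACKR4_KO. Slfn5 stood at 232, 227 and 250 CPM in WT and 200, 308 and 136 CPM in ACKR4_KO. Ifitm3, which blocks fusion in endosomes, stood at 179, 191 and 148 CPM in WT and 136, 263 and 214 CPM in ACKR4_KO. Ifi27, with 66.0, 62.2 and 49.5 CPM in WT and 69.6, 137 and 84.0 CPM in ACKR4_KO, was the only one at an unadjusted p under 0.05 (log2 difference 0.71, edgeR's quasi-likelihood test, adjusted p = 0.661). Ifi27 was named after its values were seen. Its groups did not overlap, and neither did those of Tor3a, lower in ACKR4_KO. Over all genes tested, 7.45% had such a p and 14.2% had groups that did not overlap. The 10 negative regulators, Usp18 and Isg15 among them, split 6 higher and 4 lower with 0 called and a median of 0.08. Of these, Tnfaip3 (A20), which restrains NF-kappaB signalling, was the only gene at an unadjusted p under 0.05 and was named after its values were seen. It stood at 13.4, 13.2 and 16.7 CPM in WT and at 11.5, 8.61 and 9.25 CPM in ACKR4_KO, and the groups did not overlap (log2 difference -0.56, edgeR's quasi-likelihood test, adjusted p = 0.661). Groups did not overlap either for Socs1 and Ptpn2, lower in ACKR4_KO, and for Irf2, higher in ACKR4_KO.

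The genes that respond mainly to interferon-gamma had another order of hearts. Of 20 tested of 22 listed, 3 were higher and 17 lower, with 0 called and a median of -0.22, and the highest library was WT replicate 1 for 11 and ACKR4_KO replicate 2 for 7. Iigp1, an immunity-related GTPase, stood at 233, 58.7 and 49.0 CPM in WT and at 54.1, 158 and 63.1 CPM in ACKR4_KO. Igtp stood at 128, 37.1 and 22.7 CPM in WT and at 35.5, 112 and 28.6 CPM in ACKR4_KO. Irgm2 stood at 167, 57.5 and 47.2 CPM in WT and at 67.0, 168 and 42.3 CPM in ACKR4_KO. In each of these, WT replicate 1 and ACKR4_KO replicate 2 stood above the other 4 hearts, with 1 from each genotype.

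That pattern, both hearts above the other 4, held for 17 of the 20 interferon-gamma genes and 18 of the 34 members, against 4.87% of all genes. Both hearts were singled out after their values were seen, and ACKR4_KO replicate 2 was already highest for 32 members. The counts are therefore a description. The scores of the interferon-gamma list were 0.83, -0.10 and -0.38 in WT and -0.38, 0.52 and -0.50 in ACKR4_KO. So WT replicate 1 scored 0.83 on that list and 0.06 on the 34 members, while ACKR4_KO replicate 2 scored 0.52 and 0.93. Monocyte markers summed highest in WT replicate 1, at 91.1 CPM against 24.3 to 47.9 CPM, mostly from Chil3, and lung epithelium markers were highest there, at 262 CPM. Their part in these levels was not tested. The plot of list scores sets the lists side by side.

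**Figure D5:**
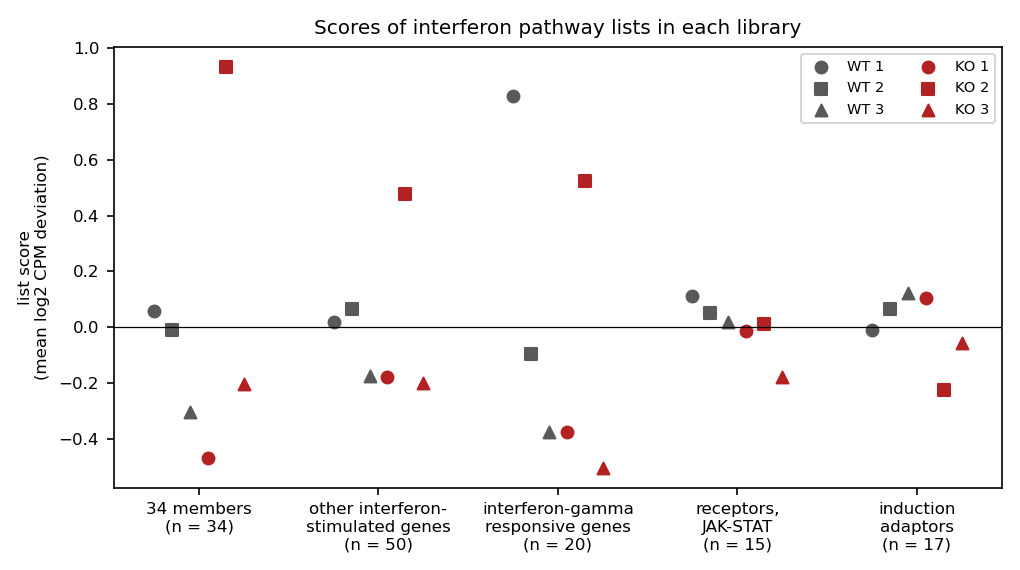
List score (y axis, mean log2 CPM deviation from each gene's mean over the 6 libraries) of 5 interferon pathway lists (x axis, with the number of genes tested) in each library. Grey marks are WT and red marks ACKR4_KO, and the score of ACKR4_KO replicate 2 is 0.93 for the 34 members while the highest score of the interferon-gamma list is that of WT replicate 1, 0.83.

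The 34 genes lie on 14 chromosomes, and 14 of them have another member within 100 kb (GENCODE M21, GRCm38). Ifit2, Ifit3 and Ifit1 follow each other at chr19:34550694-34650009 on the plus strand, and Parp14, Dtx3l and Parp9 lie at chr16:35832874-35972605. The other neighbours are Rsad2 with Cmpk2 on chromosome 12, Mx1 with Mx2 on chromosome 16, Gbp3 with Gbp2 on chromosome 3, and Oas2 with Oas3 on chromosome 5. Neighbours did not always share an order of hearts: ACKR4_KO replicate 2 was 1.61-fold above the next heart for Gbp3 and 0.787 times the highest heart for Gbp2. Annotated gene bodies overlap for Parp9 and Dtx3l, Irf7 and Phrf1, Irf9 and Rnf31, and Rtp4 and Masp1. Reads there may be counted for either gene or for neither, since the strand setting of the counting is not stated in the sources at hand.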

How the data were processed

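The deposited table holds raw counts of reads per gene, 1 column for each of the 6 libraries, and 0 columns were unused. Per the submitters' processing notes, the authors used CASAVA 1.8.2, HISAT2 and HTSeq 0.6.0 with mm10. Neither the annotation release nor how strand was treated is stated in the sources at hand. Groups and replicate numbers came from the sample descriptions. With edgeR 4.0.16 (R 4.3.3), filterByExpr (minimum count 10, minimum total 15) kept 14406 genes, TMM factors (0.891 to 1.05) scaled the libraries, and the robust quasi-likelihood test compared ACKR4_KO with WT (two-sided). Its p-values were adjusted by Benjamini-Hochberg across the whole table, with 0.05 as the threshold. CPM are TMM-scaled, and log2 CPM use a prior count of 2. The fit was tested on simulated data. Positions and exon lengths came from GENCODE M21, promoters from RefSeq.

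Members given by library were the 10 with the highest mean CPM, any whose groups did not overlap or that passed the threshold, and the 5 with the smallest p, with Isg20 added after its values were seen. Of the pathway lists, the genes with the highest mean CPM were given, and 1 gene that the rule names is not reported here. The members and lists were chosen with earlier results of these data known. Alternatives were other scaling factors, other filters, DESeq2 1.42.0, limma 3.58.1 (voom), a replicate block and leaving out each library. The replicate numbers were not taken to pair hearts, because the labels do not say that they mark a shared litter, day or batch. Column names share a number between the groups for replicates 2 and 3 but not for replicate 1. Correlations of deviations between hearts of the same replicate number were 0.0665, 0.0527 and 0.125, each the highest for its WT heart. Those between different replicate numbers ran from -0.121 to 0.0625. These values do not settle whether hearts were paired, and the replicate block is given among the alternatives for that reason.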

Additional observations from a re-analysis of the deposited data

How the results depend on the processing

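The count of members called was 0 under every alternative run. Over all genes, where 0 were called, DESeq2 called 41, the fit with no filter on low counts 24, and leaving out a library 0 to 1 (the 1 without ACKR4_KO replicate 3 was Ackr4). Genes at an unadjusted p under 0.05 ranged from 478 to 1906 when 1 library was left out. Ackr4 passed the threshold with DESeq2 (-4.73, adjusted p = 1.415e-18), with no filter (-4.70, edgeR adjusted p = 8.582e-05) and, among the fits without 1 library (-5.82 to -4.28), without ACKR4_KO replicate 3 (adjusted p = 0.003314).

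The library that decides the direction is ACKR4_KO replicate 2. The median log2 difference of the members ranged from -0.23 without it to 0.54 without ACKR4_KO replicate 1, and the score difference from -0.25 to 0.45. Members below 0 ranged from 2 to 30, and members whose groups do not overlap from 0 to 12. Members at an unadjusted p under 0.05 in edgeR's quasi-likelihood test ranged from 0 to 5. Both highest counts were without ACKR4_KO replicate 2, against 12% of all genes lower without overlap and 6.64% at such a p. Without ACKR4_KO replicate 1, 3 members (Ifit3, Ifit2 and Mx2) had such a p, against 13.1% of all genes. In that fit groups did not overlap for 5 members, all higher in ACKR4_KO, against 15.5% of all genes. With 1 library left out, log2 differences ranged from -0.29 to 0.65 for Bst2, -0.19 to 0.21 for Trim25, -0.40 to 0.46 for Ifi27l2a, -0.64 to 0.65 for Irf7, -0.20 to 0.53 for Irf9, -0.51 to 0.38 for Rsad2, -0.068 to 0.60 for Ifit2, -0.059 to 0.94 for Ifit3, -0.52 to 0.21 for Parp14, 0.28 to 0.70 for Mx1, 0.02 to 1.15 for Mx2, 0.033 to 0.57 for Eif2ak2, 0.099 to 0.57 for Dhx58, -0.79 to -0.17 for Gbp2 and -0.41 to 0.021 for Irf1, in each case lowest without ACKR4_KO replicate 2. Parp14 was also positive with RLE factors (0.0039) and DESeq2 (0.0026), and Rsad2 negative with limma-voom (-0.10).

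Library size alone, chosen after seeing the data, moved the median of all genes from 0.01 to -0.08 and the share of genes below 0 from 48% to 62.6%. Under it 7 members lay below 0, and groups did not overlap for 1, lower in ACKR4_KO (11.7% of all genes in that direction). ACKR4_KO replicate 2 passed 1.5-fold for 14 (0.528% of all genes), and Trim25 (-0.041) and Rsad2 (-0.064) turned negative. With the replicate number as a block, 6 genes and 0 members were called, the members' median was 0.16, and Rsad2 was -0.088. Counts of 28 to 50 reads a library limit Mx1, and a few reads leave the interferon ligands at or near the limit of detection. The cause of the changes was not tested.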
